A study of Mus musculus with 8 samples.

Results

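The 39 genes described here carry out or control the synthesis of sterols and fatty acids. They were chosen by symbol from what is known of these pathways, with earlier results of these data also known. They comprise 8 enzymes of the mevalonate and isoprenoid steps, 11 enzymes from squalene to sterol, 5 regulators of the SREBP pathway, 3 sterol transport proteins, 2 LXR receptors, 3 LXR target genes and 7 enzymes of fatty acid synthesis and desaturation. The count table held all 39 among 55367 genes. Of these, 38 had at least 10 counts in at least 3 of the 8 libraries and were tested among 12137 genes. The exception was Abcg1, a cholesterol exporter, which had 0 counts in every library, so at this depth it could lie no higher than the limit that a count of 0 allows, from 0.212 to 0.355 CPM.

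Poly(A) RNA came from 1 line of fibroblastic reticular cells (FRC), the stromal cells that build the scaffold of the lymph node, derived from p53 ER/ER C57BL/6 mice. The cells were cultured for 4 days in medium with 2% FBS in 1 of 4 conditions, with 2 libraries each. The vehicle group received water, the LA group received lactic acid at 15 mmol/L, the TCM group received RPMI medium conditioned by B16.F10 melanoma cells and the CCM group received RPMI medium conditioned by FRCs. TCM was set against CCM, and LA against vehicle. All 4 groups shared the line and its p53 alleles. The study describes the libraries of a group as biological replicates, and the labels say no more of how the cultures were separated. They are replicates of 1 line, so P values measure only the spread between these libraries.

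Cells sense sterol in the membrane of the endoplasmic reticulum. When it is scarce, Scap escorts the SREBP transcription factors to the Golgi, where they are cut and released to switch on genes of sterol and fatty acid synthesis, and when it is plentiful the Insig proteins hold Scap back. LXR receptors answer the opposite state: they bind oxysterols and switch on genes that export cholesterol or limit its uptake, together with Srebf1 and some genes of fatty acid synthesis. Because sterols are also substrates for other lipids and for membranes, these transcripts are often read as a group, but mRNA levels do not measure enzyme activity or lipid content.

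Total counts ranged from 8232889 to 14107964 per library, and TMM scaling factors from 0.938 to 1.04. The TCM libraries differed most from each other, with a chi-square of 19.8 per degree of freedom over genes, where sampling alone gives about 1 and the other pairs gave 3.28 to 7.32. Values are given as CPM (counts scaled to a common library size) on TMM-scaled library sizes, for replicate 1 and then replicate 2. FRC markers were present, with Pdpn from 114 to 187 CPM and Vcam1 from 136 to 215 CPM, whereas Ccl21a was at 0 in all 8 libraries, Ccl19 at 0 in 7 and Thy1 at no more than 1.75 CPM. Of 6 leukocyte markers 5 were at 0 in all libraries. The 6 melanoma markers summed to between 0.956 and 1.90 CPM in every library, mostly from Pmel. Tyrp1 (6 and 3 counts), Dct (1 and 1) and Sox10 (0 and 1) had counts in the TCM libraries only. The part of these markers in the results was not tested. A gene was called when its adjusted P value in edgeR's quasi-likelihood test was under 0.05 and its log2 fold change (log2 FC) was beyond 0.39, and each log2 FC is given ± its standard error. A call described as lost failed one of these thresholds, which could be the fold threshold alone. In bulk RNA, fewer cells of a kind and less RNA per cell cannot be told apart.

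**Figure D1:**
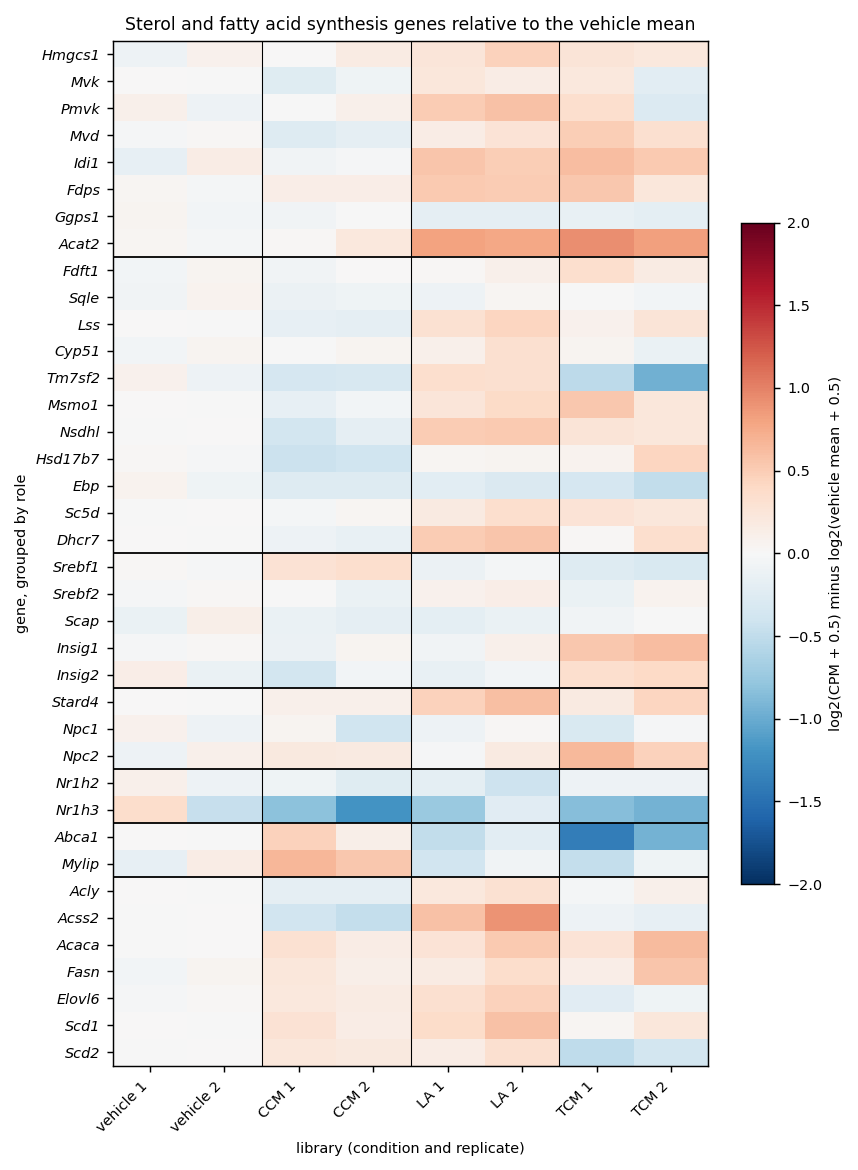
Each row is 1 of the 38 genes tested, ordered by role, and each column is 1 library. Color is the log2 ratio of its CPM to the vehicle mean after adding 0.5 CPM to both, red above and blue below it. Abca1 is lowest in the 2 TCM libraries (28.4 and 38.6 CPM against 74.7 and 74.4 CPM with vehicle), and Acat2 is high in both the LA and the TCM libraries.

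TCM and LA each changed part of this gene set. With TCM, 8 of 38 genes were called higher than with CCM: Mvd, Idi1, Acat2, Msmo1, Nsdhl, Hsd17b7, Insig1 and Insig2. Another 4 were called lower, namely Srebf1, Abca1, Mylip and Scd2. Over all genes tested, 8.83% were called higher and 10.2% lower in the same comparison. With LA, 6 of 38 genes were called higher than with vehicle, where 1.31% of all genes were, and these were Acat2, Nsdhl, Dhcr7, Stard4, Acss2 and Scd1. None was called lower with LA, where 1.24% of all genes were, and DESeq2 also called 0 lower. At an unadjusted P value under 0.05, 18 of the 38 were higher and 2 lower with LA, beside 1731 of all 12137 genes in either direction. Acat2 and Nsdhl were called higher in both comparisons.

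The median log2 FC of the 38 genes was 0.18 for TCM and 0.23 for LA, against medians over all genes tested of 0.000322 and −0.000345. Both TCM libraries lay above both CCM libraries for 20 of the 38 genes and below them for 8, against 27.8% and 30.5% of all genes. For LA and vehicle the same held for 24 genes above and 6 below, against 23.7% and 24.2% of all genes. The TCM libraries had the smallest TMM factors, and without these factors the median of all genes for TCM against CCM moved to −0.14. The calls among the 38 then became 6 higher and 6 lower, beside 651 higher and 2041 lower of 12137 genes. Msmo1 and Nsdhl were no longer called higher, and Tm7sf2 and Elovl6 were called lower. The number of genes called for LA depended on single libraries, being 0 without vehicle replicate 2, 1 without vehicle replicate 1 or LA replicate 2, 2 without LA replicate 1, 3 without either CCM library and 11 without either of the TCM libraries, the pair that differed most. For TCM against CCM it lay between 8 and 15 when any 1 library was left out.

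**Figure D2:**
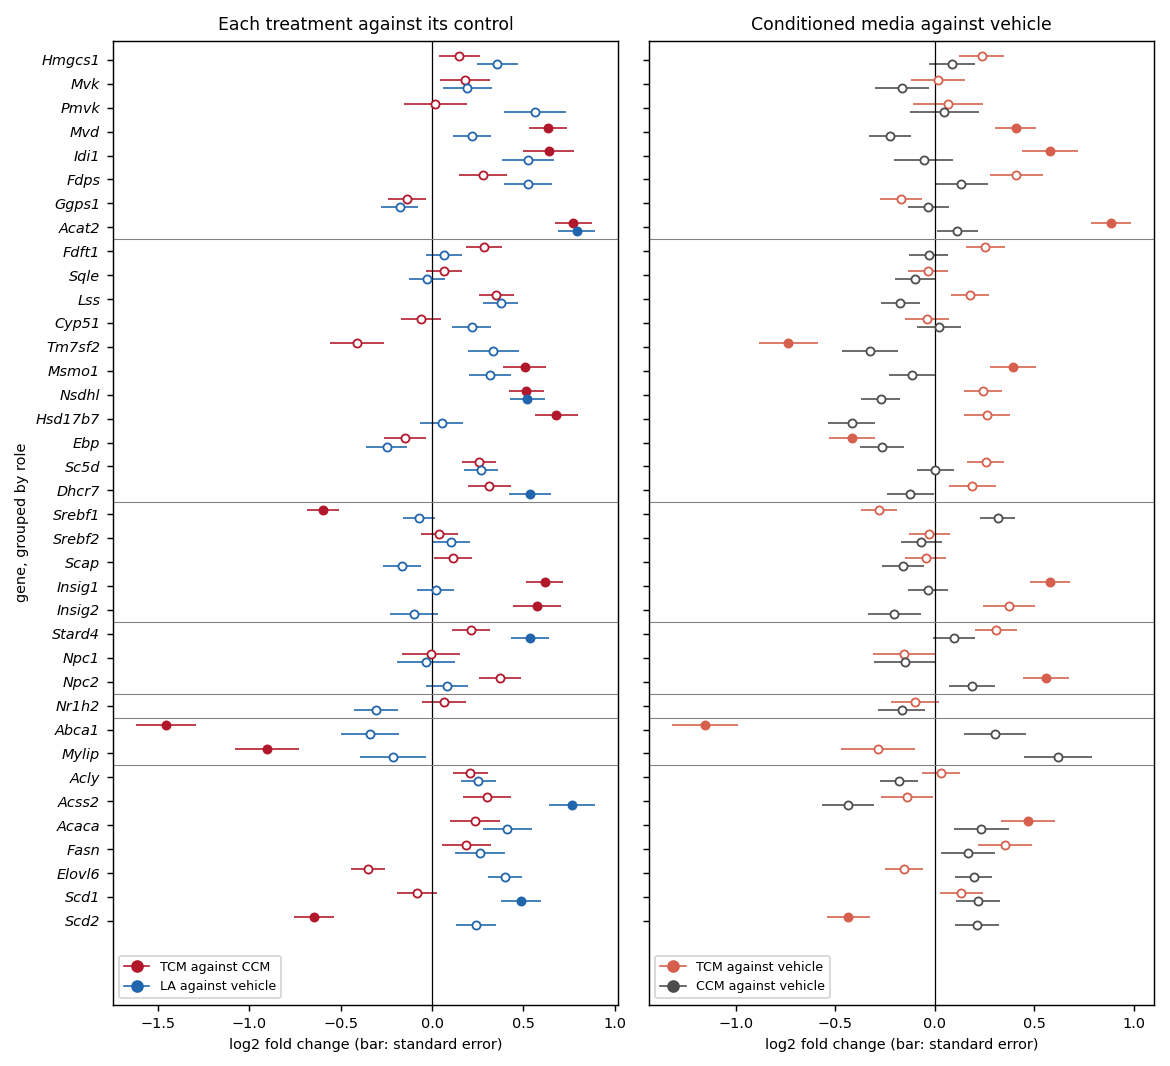
Points give the log2 FC of each of 37 genes, with bars of ± 1 SE. The left panel shows TCM against CCM and LA against vehicle, and the right panel shows TCM and CCM against vehicle. Filled points were called and open points were not, and Nr1h3, near the floor, and Abcg1 are not drawn. In the left panel the LA points of the 7 fatty acid genes all lie above 0, whereas Abca1, Mylip, Scd2 and Srebf1 have filled TCM points below 0.

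The mevalonate steps build isoprenoid units from acetyl-CoA. Of the 8 genes here, 3 were called higher with TCM, where 8.83% of all genes were. With LA 1 was called higher, where 1.31% of all genes were, and none was called lower in either comparison. Acat2, the cytosolic thiolase that joins acetyl-CoA units, had the largest increase of all 38 genes in both comparisons. It was at 59.2 and 56.1 CPM with vehicle, 58.3 and 66.5 CPM with CCM, 101 and 98.7 CPM with LA and 111 and 103 CPM with TCM. Both treated groups lay far above both controls, with no overlap. The level was 1.71-fold higher with TCM (log2 FC 0.77 ± 0.10, edgeR adjusted P = 0.000354) and 1.73-fold higher with LA (log2 FC 0.79 ± 0.10, edgeR adjusted P = 0.00290). The LA call was lost without vehicle replicate 2 (edgeR adjusted P = 0.0601). Reads of Acat2 may be shared with its near copy Acat3.

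Mvd, which decarboxylates the phosphorylated mevalonate, was at 57.0 and 59.2 CPM with vehicle, 48.4 and 51.0 CPM with CCM, 64.6 and 70.5 CPM with LA and 81.6 and 72.6 CPM with TCM. Its TCM libraries were the highest and its CCM libraries the lowest of the 8. It was 1.55-fold higher with TCM than with CCM (log2 FC 0.63 ± 0.10, edgeR adjusted P = 0.00149), while the LA difference was not called (log2 FC 0.22 ± 0.10, edgeR adjusted P = 0.370). Idi1, the isomerase that readies isoprenoid units for chain building, was at 12.3 and 15.5 CPM with vehicle, 13.2 and 13.7 CPM with CCM, 20.6 and 19.6 CPM with LA and 21.5 and 20.2 CPM with TCM. All 4 LA and TCM libraries exceeded all 4 vehicle and CCM libraries. Idi1 passed the test with TCM (log2 FC 0.64 ± 0.14, edgeR adjusted P = 0.00852), whereas LA fell short (log2 FC 0.52 ± 0.14, edgeR adjusted P = 0.0853). The TCM call was lost without either CCM library (edgeR adjusted P from 0.0538 to 0.0798), and its reads may be shared with Idi2.

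The other 5 genes of this arm were called in neither comparison. Hmgcs1, which makes HMG-CoA, was at 475 and 539.7 CPM with vehicle, 509.5 and 567 CPM with CCM, 601 and 698 CPM with LA and 605 and 589 CPM with TCM; both LA libraries and both TCM libraries lay above their controls. Its differences did not pass the test (log2 FC 0.15 ± 0.11 for TCM and 0.36 ± 0.11 for LA). Pmvk and Fdps, the phosphomevalonate kinase and the farnesyl diphosphate synthase, had LA libraries above vehicle without a call, at log2 FC 0.56 ± 0.17 and 0.52 ± 0.13. Mvk and Ggps1, the mevalonate kinase and the geranylgeranyl diphosphate synthase, stayed within log2 FC −0.18 and 0.19 in both comparisons.

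Among the 11 genes of the steps from squalene to sterol, none was called lower with TCM than with CCM and 3 were called higher. Over all genes, 10.2% were called lower and 8.83% higher. The 3 genes were Msmo1, Nsdhl and Hsd17b7. All 3 act in succession on the later removal of methyl groups from the sterol ring, whereas Cyp51, which removes an earlier one, was not called (log2 FC −0.059 ± 0.11, edgeR adjusted P = 0.746). Msmo1, the oxidase, was at 264 and 264 CPM with vehicle, 235 and 253 CPM with CCM, 312 and 344 CPM with LA and 385 and 307 CPM with TCM. Nsdhl, the dehydrogenase, was at 75.5 and 76.0 CPM with vehicle, 58.8 and 66.7 CPM with CCM, 108 and 109 CPM with LA and 90.4 and 88.9 CPM with TCM. Hsd17b7, the reductase, was at 89.1 and 86.8 CPM with vehicle, 65.4 and 66.4 CPM with CCM, 90.4 and 91.8 CPM with LA and 92.3 and 119 CPM with TCM. In each of the 3 genes both TCM libraries lay above both CCM libraries, and the CCM libraries lay below the vehicle libraries. The increases over CCM were 0.51 ± 0.12 for Msmo1 (edgeR adjusted P = 0.0107), 0.52 ± 0.10 for Nsdhl (edgeR adjusted P = 0.00342) and 0.68 ± 0.12 for Hsd17b7 (edgeR adjusted P = 0.00214) on the log2 scale. The differences of TCM from vehicle were 0.39, 0.24 and 0.26 on the log2 scale, and only Msmo1 was called in that comparison.

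These calls differed in how firmly they stood. Hsd17b7 kept its TCM call whichever library was left out. The Msmo1 call against CCM was lost without either CCM library or TCM replicate 1 (edgeR adjusted P from 0.0195 to 0.114), and without TMM factors it fell short of the fold threshold (log2 FC 0.37, edgeR adjusted P = 0.0379). Nsdhl lost it without CCM replicate 1 (edgeR adjusted P = 0.0679) and without TMM factors (log2 FC 0.38, edgeR adjusted P = 0.0171).

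With LA, Nsdhl and Dhcr7 were called higher among these 11 genes, where 1.31% of all genes were. Nsdhl rose 1.43-fold (log2 FC 0.52 ± 0.10, edgeR adjusted P = 0.0194), about as much as with TCM. Dhcr7, the reductase that completes cholesterol, was at 47.4 and 47.0 CPM with vehicle, 43.9 and 42.7 CPM with CCM, 67.1 and 69.5 CPM with LA and 48.0 and 59.7 CPM with TCM. Both LA libraries were above the other 6, with TCM replicate 2 next. The LA difference was 0.53 ± 0.12 on the log2 scale (edgeR adjusted P = 0.0354), and that of TCM did not pass the test (log2 FC 0.31 ± 0.12, edgeR adjusted P = 0.0832). The LA call of Dhcr7 was lost without either vehicle library, either CCM library or either LA library (edgeR adjusted P from 0.0759 to 0.263), and that of Nsdhl without either vehicle library or either LA library (edgeR adjusted P from 0.113 to 0.166).

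Tm7sf2, a sterol reductase, had its lowest values with TCM. It was at 35.1 and 30.7 CPM with vehicle, 26.1 and 26.4 CPM with CCM, 41.5 and 41.3 CPM with LA and 22.8 and 16.6 CPM with TCM. The TCM libraries were the lowest and the LA libraries the highest of the 8, with no overlap between any treated and control pair. The TCM difference from CCM was not called (log2 FC −0.41 ± 0.15, edgeR adjusted P = 0.0738), nor was that of LA from vehicle (log2 FC 0.34 ± 0.14, edgeR adjusted P = 0.288). The former was called without TCM replicate 1 (log2 FC −0.66, edgeR adjusted P = 0.00445), without TMM factors (log2 FC −0.55, edgeR adjusted P = 0.0211) and without the filter on low counts (log2 FC −0.41, edgeR adjusted P = 0.0374). TCM against vehicle was called (log2 FC −0.74 ± 0.15, edgeR adjusted P = 0.00568). This last call was lost without vehicle replicate 1 (edgeR adjusted P = 0.0552). Its exons overlap those of Vps51, and whether reads were counted by strand is not given in the sources used here.

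Ebp, a sterol isomerase, was at 40.1 and 35.9 CPM with vehicle, 31.6 and 31.5 CPM with CCM, 32.8 and 31.2 CPM with LA and 30.1 and 26.7 CPM with TCM. Its vehicle libraries were the highest of the 8, and TCM was called lower than vehicle (log2 FC −0.42 ± 0.11, edgeR adjusted P = 0.0269), a call lost with DESeq2 (adjusted P = 0.0709) and without either vehicle library, either CCM library or TCM replicate 2 (edgeR adjusted P from 0.0540 to 0.184). The remaining genes of the arm, Fdft1, Sqle, Lss, Cyp51 and Sc5d, were called in none of the 5 comparisons. Lss, which closes the sterol rings, had an adjusted P value under 0.05 with TCM but a difference just inside the fold threshold (log2 FC 0.35 ± 0.10, edgeR adjusted P = 0.0247), and its LA libraries, at 116 and 126 CPM, were above vehicle at 94.2 and 92.6 CPM. Sqle, the epoxidase often regarded as a control point of the route, moved little, from −0.030 with LA to 0.065 with TCM on the log2 scale. Cyp51, the lanosterol demethylase, had values of −0.059 with TCM and 0.22 with LA.

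**Figure D3:**
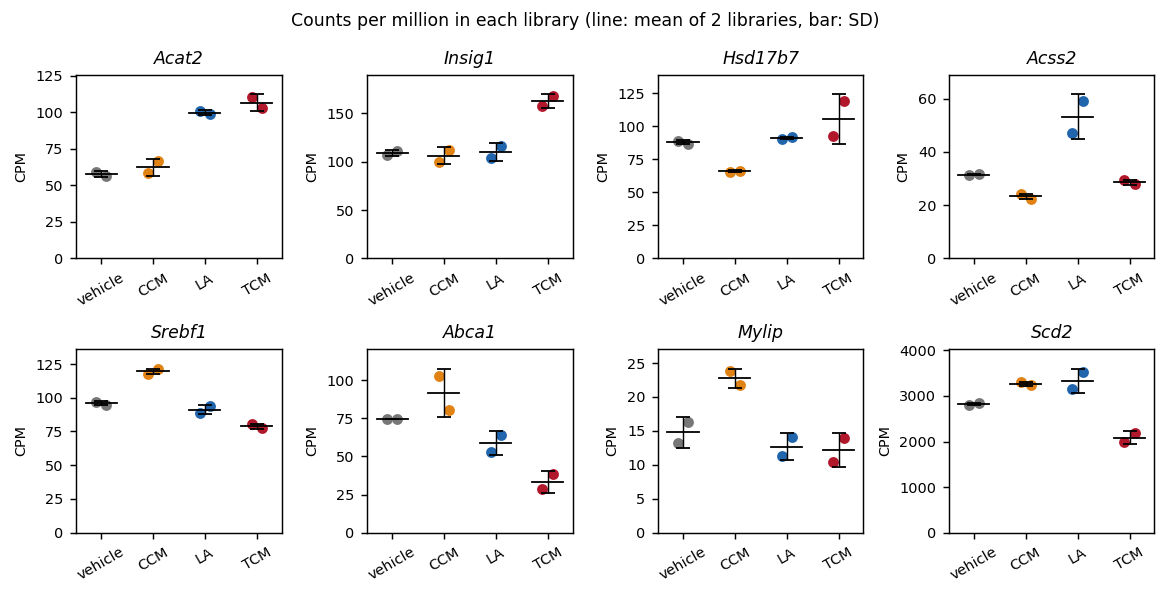
Each panel shows the CPM of 1 gene in each library, by condition, with the mean and ± 1 SD of 2 libraries on an axis from 0. TCM points of Acat2, Insig1 and Hsd17b7 lie above the CCM points and those of Abca1, Srebf1 and Scd2 below them, with no overlap.

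Because SREBP acts on promoters, the sequence before the start of these genes was read from RefSeq (build GRCm38.p6), in which 31 of the 39 genes had a promoter window of 300 bases, 250 before and 50 after the start. The sterol regulatory element was searched as TCACNCCAC, the CCAAT box bound by NF-Y as CCAAT and an E-box as CACGTG, on both strands. The stretches below hold no annotated exon and belong to some of the genes called higher with TCM. The exception is Hmgcs1, shown as the only gene of the 31 with an exact match to TCACNCCAC. Each is printed 5′ to 3′ on the strand of the gene, and capitals mark the matches. The stretches end at the last base before the RefSeq start, except that of Hsd17b7, which ends 37 bases before it, and that of Insig1, which ends 50 bases before it. The stretch of Acat2, another gene called higher with TCM, held none of the letters searched and is not printed.
Hmgcs1, chr13:119690201-119690350, plus strand: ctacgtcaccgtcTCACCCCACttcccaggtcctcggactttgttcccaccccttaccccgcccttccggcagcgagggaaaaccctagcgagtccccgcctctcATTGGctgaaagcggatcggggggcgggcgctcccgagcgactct
Mvd, chr8:122443423-122443572, minus strand: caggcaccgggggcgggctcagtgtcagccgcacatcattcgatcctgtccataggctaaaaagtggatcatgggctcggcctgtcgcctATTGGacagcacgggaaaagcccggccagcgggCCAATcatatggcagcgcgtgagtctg
Nsdhl, chrX:72918412-72918520, plus strand: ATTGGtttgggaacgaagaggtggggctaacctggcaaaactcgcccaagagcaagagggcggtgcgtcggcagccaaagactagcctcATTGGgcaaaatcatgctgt
Hsd17b7, chr1:169969242-169969391, minus strand: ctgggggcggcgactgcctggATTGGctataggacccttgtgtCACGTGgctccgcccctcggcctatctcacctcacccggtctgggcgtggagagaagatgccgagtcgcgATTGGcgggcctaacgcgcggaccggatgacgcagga
Insig1, chr5:28071213-28071362, plus strand: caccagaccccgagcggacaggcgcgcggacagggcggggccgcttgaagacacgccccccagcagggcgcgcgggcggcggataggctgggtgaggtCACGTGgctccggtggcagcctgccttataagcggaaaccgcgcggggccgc
Insig2, chr1:121332590-121332739, minus strand: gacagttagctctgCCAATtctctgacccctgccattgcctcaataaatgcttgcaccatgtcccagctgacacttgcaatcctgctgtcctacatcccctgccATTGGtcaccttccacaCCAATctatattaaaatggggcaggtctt

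A gene was counted where any of its windows held the letters. The set of all genes with a window was not limited to those tested here. CCAAT was in 24 of these 31 genes (77.4%) and in 15 of the 16 sterol enzymes among them, Acat2 being the exception. It was in 41.1% of 27025 genes with a window. In the stretch printed for Hmgcs1 the element TCACCCCAC comes before an inverted CCAAT box, ATTGG, and its whole window holds further copies of ATTGG on either side. An exact match to TCACNCCAC was in 1 of 31 genes and in 1.44% of all genes, and variants of it were not searched. The E-box was in 6 of 31, namely Abca1, Dhcr7, Hsd17b7, Insig1, Sc5d and Scap, and in 8.09% of all genes. An exact direct repeat of AGGTCA with 4 bases between the copies was in 0 of 31 genes and in 0.0148% of all genes. LXR binds repeats of this form, but variants of the letters were not searched. The count of 0 therefore does not show that Abca1 or any other gene lacks an LXR site. These matches describe letters in a window and say nothing of binding in these cells.

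Both Insig genes, whose proteins retain Scap in the endoplasmic reticulum, were called higher with TCM and not with LA, while the message of the SREBP-1 gene itself was lower with TCM. Insig1 was at 107 and 111 CPM with vehicle, 100.2 and 113 CPM with CCM, 104 and 117 CPM with LA and 158 and 168 CPM with TCM. Its TCM libraries stood well apart from the other 6, which lay between 100.2 and 117 CPM. It was 1.53-fold higher with TCM than with CCM (log2 FC 0.62 ± 0.10, edgeR adjusted P = 0.00144), and LA differed from vehicle by 0.020 ± 0.10 on the log2 scale. Insig2 was at 45.8 and 38.0 CPM with vehicle, 32.6 and 40.2 CPM with CCM, 37.7 and 40.2 CPM with LA and 52.8 and 55.5 CPM with TCM. TCM was the highest group here too (log2 FC 0.57 ± 0.13, edgeR adjusted P = 0.0100), with LA at −0.10 ± 0.13 relative to vehicle. The call of Insig2 was lost without CCM replicate 1 (edgeR adjusted P = 0.130), whereas that of Insig1 was kept without each library in turn.

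Srebf1, which encodes SREBP-1, was at 97.1 and 94.8 CPM with vehicle, 118 and 121 CPM with CCM, 88.8 and 93.6 CPM with LA and 80.3 and 77.7 CPM with TCM. CCM was the highest group and TCM the lowest, and the 4 groups did not overlap. TCM was 1.51-fold lower than CCM (log2 FC −0.60 ± 0.089, edgeR adjusted P = 0.000801), and this call was kept without each library in turn. Against vehicle the TCM difference was not called (log2 FC −0.28 ± 0.090, edgeR adjusted P = 0.0507). Gene counts merge the SREBP-1a and SREBP-1c transcripts. Srebf2, which encodes SREBP-2, was at 432 and 444 CPM with vehicle, 435 and 401 CPM with CCM, 464 and 478 CPM with LA and 399 and 459.8 CPM with TCM, and Scap was at 77.1 and 91.4 CPM with vehicle, 76.6 and 74.5 CPM with CCM, 73.3 and 76.9 CPM with LA and 79.8 and 83.6 CPM with TCM. Neither was called in any of the 5 comparisons, and the TCM differences from CCM were 0.040 ± 0.10 for Srebf2 and 0.11 ± 0.11 for Scap.

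Of the sterol carriers, Stard4 was higher with LA and Npc2 with TCM. Stard4, a soluble protein that moves cholesterol between membranes, was at 103 and 102 CPM with vehicle, 109.8 and 109.7 CPM with CCM, 142 and 156 CPM with LA and 116 and 139 CPM with TCM. The LA libraries were the highest, and vehicle and CCM were close together. It was 1.45-fold higher with LA than with vehicle (log2 FC 0.53 ± 0.10, edgeR adjusted P = 0.0251), a call lost without either vehicle library, either CCM library or either LA library (edgeR adjusted P from 0.0573 to 0.215). Npc2, which passes cholesterol to Npc1 inside the lysosome, was at 266 and 307 CPM with vehicle, 329 and 324 CPM with CCM, 282 and 325 CPM with LA and 452 and 393 CPM with TCM. TCM differed from vehicle (log2 FC 0.56 ± 0.12, edgeR adjusted P = 0.00658), a call lost without vehicle replicate 1 (edgeR adjusted P = 0.0815), and from CCM by an amount just inside the fold threshold (log2 FC 0.37 ± 0.12, edgeR adjusted P = 0.0405). Npc1, the membrane partner, ranged from 36.7 to 51.7 CPM with every pair of groups overlapping, and its TCM difference was −0.0036 on the log2 scale.

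Both LXR targets among the 38 genes were lower with TCM than with CCM, and Abca1 had the largest decrease of the 38. Abca1, the transporter that loads cholesterol onto lipid-poor apolipoprotein, was at 74.7 and 74.4 CPM with vehicle, 103 and 80.5 CPM with CCM, 53.0 and 64.1 CPM with LA and 28.4 and 38.6 CPM with TCM. The TCM libraries were the lowest, the LA libraries came next, and CCM was the highest. TCM was 2.74-fold lower than CCM (log2 FC −1.46 ± 0.17, edgeR adjusted P = 0.000150) and 2.23-fold lower than vehicle (log2 FC −1.16 ± 0.17, edgeR adjusted P = 0.000837). LA lay below vehicle in both libraries without passing the test (log2 FC −0.34 ± 0.16, edgeR adjusted P = 0.364).

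Mylip, a ubiquitin ligase that marks lipoprotein receptors for degradation, was at 13.2 and 16.4 CPM with vehicle, 23.8 and 21.8 CPM with CCM, 11.2 and 14.0 CPM with LA and 10.4 and 14.0 CPM with TCM. CCM held the highest values, and TCM overlapped vehicle. TCM was 1.87-fold lower than CCM (log2 FC −0.90 ± 0.18, edgeR adjusted P = 0.00443), but its difference from vehicle was not called (log2 FC −0.28 ± 0.19, edgeR adjusted P = 0.327). The receptors themselves were called in no comparison. Nr1h2, which encodes LXR beta, was at 59.0 and 51.0 CPM with vehicle, 51.5 and 46.3 CPM with CCM, 48.2 and 41.1 CPM with LA and 51.3 and 51.1 CPM with TCM. Nr1h3, which encodes LXR alpha, was near the floor, at 2.35 and 1.11 CPM with vehicle, 0.759 and 0.478 CPM with CCM, 0.828 and 1.41 CPM with LA and 0.738 and 0.655 CPM with TCM, so that changes of this gene were hardly measurable at this depth.

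The enzymes of fatty acid synthesis and desaturation ran higher with LA than with vehicle. All 7 genes had both LA libraries above both vehicle libraries, as did 23.7% of all genes. Their median log2 FC was 0.399 for LA against vehicle. For CCM against vehicle it was 0.196 (from −0.437 to 0.235), with none called. With LA 2 were called higher, where 1.31% of all genes were. With TCM, none was called higher than with CCM and 1 was called lower, where 8.83% and 10.2% of all genes were. Acss2, which turns acetate into acetyl-CoA, was at 31.3 and 31.7 CPM with vehicle, 24.0 and 22.5 CPM with CCM, 47.3 and 59.3 CPM with LA and 29.3 and 27.9 CPM with TCM. LA stood above the other 3 groups, and CCM was the lowest. It was 1.70-fold higher with LA than with vehicle (log2 FC 0.77 ± 0.12, edgeR adjusted P = 0.0107), a call lost without either vehicle library or LA replicate 2 (edgeR adjusted P from 0.0935 to 0.116). Scd1, a desaturase that places a double bond in saturated fatty acids, was at 231 and 229.9 CPM with vehicle, 281 and 254 CPM with CCM, 298 and 347 CPM with LA and 237 and 269 CPM with TCM. LA was again the highest group (log2 FC 0.48 ± 0.11, edgeR adjusted P = 0.0429), while TCM and CCM overlapped. The Scd1 call was lost without either vehicle library, either CCM library or either LA library (edgeR adjusted P from 0.0820 to 0.302).

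Scd2, a desaturase closely related to Scd1, was the most abundant message of the set, at 2802 and 2840 CPM with vehicle, 3302 and 3234 CPM with CCM, 3143 and 3524 CPM with LA and 1986 and 2189 CPM with TCM. The TCM libraries were below all 6 others. TCM was 1.57-fold lower than CCM (log2 FC −0.65 ± 0.11, edgeR adjusted P = 0.00186), a call kept without each library in turn, and 1.35-fold lower than vehicle (log2 FC −0.43 ± 0.11, edgeR adjusted P = 0.0176), a call lost without either vehicle library or TCM replicate 1 (edgeR adjusted P from 0.0257 to 0.106). LA did not pass the test (log2 FC 0.24 ± 0.11, edgeR adjusted P = 0.350). Scd1 and Scd2 are close in sequence, so reads may be shared between them.

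Elovl6, which lengthens palmitate, was at 136 and 139.7 CPM with vehicle, 160.3 and 155 CPM with CCM, 173 and 191 CPM with LA and 118 and 129.6 CPM with TCM. Its LA libraries were the highest and its TCM libraries the lowest of the 8. Neither difference was called, that of TCM because it was just inside the fold threshold (log2 FC −0.35 ± 0.095, edgeR adjusted P = 0.0225) and that of LA because its adjusted P value missed 0.05 (log2 FC 0.40 ± 0.094, edgeR adjusted P = 0.0542). The LA difference was called higher with DESeq2 (adjusted P = 0.0440), without TMM factors, without the filter on low counts, with only the libraries compared and without either TCM library (edgeR adjusted P from 0.00518 to 0.0439). The TCM difference was called lower without TCM replicate 2 (log2 FC −0.42, edgeR adjusted P = 0.00426) and without TMM factors (log2 FC −0.49, edgeR adjusted P = 0.00289).

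Acaca, which makes malonyl-CoA, was at 49.9 and 50.2 CPM with vehicle, 62.1 and 55.7 CPM with CCM, 60.9 and 72.0 CPM with LA and 60.6 and 78.2 CPM with TCM. It was called for TCM against vehicle (log2 FC 0.47 ± 0.14, edgeR adjusted P = 0.0341), a call lost without either vehicle library, either CCM library or TCM replicate 2 (edgeR adjusted P from 0.0514 to 0.157) and without TMM factors (edgeR adjusted P = 0.0792). TCM against CCM (log2 FC 0.23 ± 0.13, edgeR adjusted P = 0.247) was called without TCM replicate 1 (log2 FC 0.41, edgeR adjusted P = 0.0209), and LA against vehicle (log2 FC 0.41 ± 0.14, edgeR adjusted P = 0.170) without either TCM library (edgeR adjusted P from 0.0197 to 0.0200), without the filter on low counts (log2 FC 0.42, edgeR adjusted P = 0.0265) and with only the libraries compared (log2 FC 0.41, edgeR adjusted P = 0.0478). Acly and Fasn, the citrate lyase and the fatty acid synthase, were called in none of the 5 comparisons. Acly was at 446 and 474 CPM with LA and 386 and 386 CPM with vehicle (log2 FC 0.25 ± 0.095, edgeR adjusted P = 0.232). Fasn ranged from 316 CPM with vehicle to 480.3 CPM with TCM, with the widest spread between its 2 TCM libraries.

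The 2 effects, TCM relative to CCM and LA relative to vehicle, have no library in common, and their difference was tested directly as TCM minus LA. It was called above 0 for 3 of 38 genes (Insig1, Insig2 and Hsd17b7) and below 0 for 6 (Tm7sf2, Srebf1, Abca1, Elovl6, Scd1 and Scd2), where 4.45% and 6.00% of all genes were called. For Insig1 the difference was 0.60 ± 0.14 (edgeR adjusted P = 0.0214), for Insig2 0.67 ± 0.19 (edgeR adjusted P = 0.0421) and for Hsd17b7 0.63 ± 0.17 (edgeR adjusted P = 0.0349) on the log2 scale. All 3 of these calls were lost without TMM factors (edgeR adjusted P from 0.0612 to 0.0987). The difference also takes in any gap between CCM and vehicle. CCM lay below vehicle for Hsd17b7 (log2 FC −0.42 ± 0.12) and above it for Srebf1 (log2 FC 0.32 ± 0.088), neither of them called. Relative to vehicle, TCM was called for Insig1, Tm7sf2, Abca1 and Scd2, but not for Insig2, Hsd17b7, Srebf1, Elovl6 or Scd1.

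Among the fatty acid genes the difference was below 0 for all 7, with a median of −0.47, although those of Acly (−0.044) and Fasn (−0.074) were above 0 without LA replicate 2 or TCM replicate 1. It was called for Elovl6 (log2 FC −0.75 ± 0.13, edgeR adjusted P = 0.00444), Scd2 (log2 FC −0.89 ± 0.15, edgeR adjusted P = 0.00389) and Scd1 (log2 FC −0.57 ± 0.15, edgeR adjusted P = 0.0392). Outside this group, Abca1 (log2 FC −1.11 ± 0.23, edgeR adjusted P = 0.0101), Srebf1 (log2 FC −0.52 ± 0.13, edgeR adjusted P = 0.0216) and Tm7sf2 (log2 FC −0.75 ± 0.20, edgeR adjusted P = 0.0388) also had differences below 0. By contrast, Acat2 (−0.018 ± 0.14) and Nsdhl (−0.0042 ± 0.14) had differences near 0 with standard errors larger than their size. The 19 sterol enzymes together had a median difference of −0.011, with 1 called in each direction.

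Elovl6 and Scd2 kept their calls of the difference without each library in turn. The number of genes called fell from 9 to 2 without CCM replicate 1, to 3 without LA replicate 2 or vehicle replicate 1, to 4 without vehicle replicate 2 and to 5 without CCM replicate 2 or LA replicate 1. Abca1 lost its call without CCM replicate 1 or LA replicate 2 (edgeR adjusted P from 0.0524 to 0.0567), Srebf1 without either vehicle library, either CCM library or LA replicate 2 (edgeR adjusted P from 0.0786 to 0.113) and Scd1 without either vehicle library, either CCM library or LA replicate 2 (edgeR adjusted P from 0.0808 to 0.194). Tm7sf2 lost it without either vehicle library, either CCM library or either LA library (edgeR adjusted P from 0.0666 to 0.151), and Hsd17b7 without either vehicle library, either CCM library or either LA library (edgeR adjusted P from 0.0974 to 0.135). For Insig1 it was lost without either vehicle library, CCM replicate 1 or LA replicate 1 (edgeR adjusted P from 0.0665 to 0.136) and for Insig2 without vehicle replicate 1, CCM replicate 1 or either LA library (edgeR adjusted P from 0.0990 to 0.204).

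**Figure D4:**
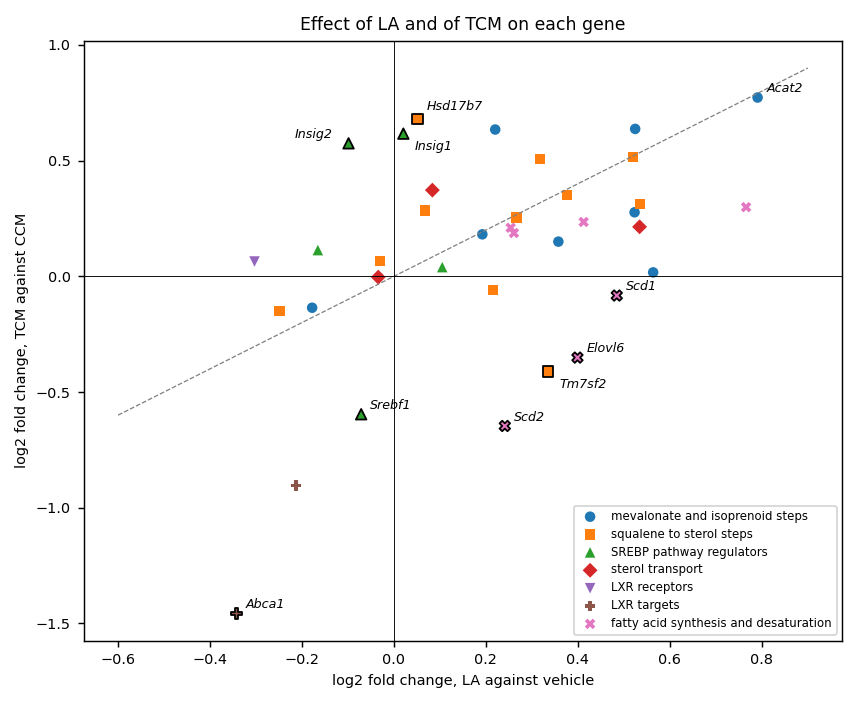
Each point is 1 of 37 genes, with its log2 FC for LA against vehicle on the horizontal axis and for TCM against CCM on the vertical axis; color and shape give the role, black edges mark genes whose difference between the effects was called, and the dashed line marks equal effects. Acat2 lies near the line, Insig1, Insig2 and Hsd17b7 lie above it with LA values near 0, and Scd1, Scd2 and Elovl6 lie below it with LA values above 0.

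Between the control media no gene of the set passed the test. None of the 38 was called between CCM and vehicle, where 0.898% of all genes were called higher and 0.404% lower. DESeq2 also called 0 of the 38. At an unadjusted P value under 0.05, 2 of the 38 were higher and 6 lower with CCM, beside 1563 of all 12137 genes in either direction. Those of the set included Hsd17b7 (log2 FC −0.42 ± 0.12, edgeR adjusted P = 0.125), Acss2 (log2 FC −0.44 ± 0.13, edgeR adjusted P = 0.141) and Srebf1 (log2 FC 0.32 ± 0.088, edgeR adjusted P = 0.118). Without either TCM library 2 genes were called, Hsd17b7 lower and Mylip higher (edgeR adjusted P from 0.00581 to 0.0251).

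Setting TCM against vehicle gave another reading of the same TCM libraries. Of 38 genes 7 were called higher (Mvd, Idi1, Acat2, Msmo1, Insig1, Npc2 and Acaca) and 4 lower (Tm7sf2, Ebp, Abca1 and Scd2), where 8.58% and 8.90% of all genes were. Acat2 was 1.85-fold higher than vehicle (log2 FC 0.89 ± 0.10, edgeR adjusted P = 0.000205) and Insig1 was also higher (log2 FC 0.58 ± 0.10, edgeR adjusted P = 0.00239). Mvd, Idi1, Acat2, Msmo1 and Insig1 were called higher with TCM against both controls and Abca1 and Scd2 lower. Without TMM factors the calls against vehicle became 4 higher and 4 lower, beside 703 higher and 1606 lower of 12137 genes. Mvd, Msmo1 and Acaca were then no longer called (edgeR adjusted P from 0.0605 to 0.104). The smaller calls depended on libraries: Mvd (log2 FC 0.41 ± 0.10, edgeR adjusted P = 0.0184) was lost without either vehicle library or TCM replicate 1 (edgeR adjusted P from 0.0423 to 0.124), Idi1 (log2 FC 0.58 ± 0.14, edgeR adjusted P = 0.0155) without vehicle replicate 1 (edgeR adjusted P = 0.130) and Msmo1 (log2 FC 0.39 ± 0.12, edgeR adjusted P = 0.0375) without either vehicle library, either CCM library, either LA library or TCM replicate 1 (edgeR adjusted P from 0.0506 to 0.169). The number called was 3 without vehicle replicate 1 and 6 without vehicle replicate 2.

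Leaving out 1 library also added calls, each time when a TCM library was left out. For LA against vehicle, Acaca, Elovl6, Fdps, Idi1 and Pmvk were called higher without either TCM library (edgeR adjusted P from 0.00454 to 0.0356). For TCM against CCM, Dhcr7 and Lss were called higher without TCM replicate 1, at log2 FC 0.46 and 0.43, and Fdps and Npc2 without TCM replicate 2, at 0.43 and 0.47. For TCM against vehicle, Fasn, Hsd17b7 and Stard4 were called higher without TCM replicate 1, at log2 FC 0.55, 0.43 and 0.43, and Fdps without TCM replicate 2, at 0.56. The difference between the effects was called for Pmvk (−0.89) without TCM replicate 1 and for Mvd (0.49), Mylip (−0.92) and Stard4 (−0.46) without TCM replicate 2.

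Compared per length of exon, levels spanned a wide range. Scd2 was highest, at 516 CPM per kb with vehicle and 382 CPM per kb with TCM. Hmgcs1 followed at 110.4 CPM per kb with vehicle, and Acly, Cyp51 and Sqle were at 73.1, 70.2 and 64.5 CPM per kb. Nr1h3 was the lowest detected gene, at 0.687 CPM per kb with vehicle. On GRCm38 Acat2 lies at chr17:12942890-12960747, Abca1 at chr4:53030787-53159895, Srebf1 at chr11:60199089-60222581 and Scd2 at chr19:44293674-44306864. Exon lengths and positions come from GENCODE M21, which is not the annotation used for counting. Exons of several of the genes, among them Fdps, Fdft1, Idi1, Srebf1, Elovl6 and Scd2, overlap another annotated gene.

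Among 82 other genes of these pathways that were tested, 8 were called higher with TCM than with CCM (9.76%) and 5 lower (6.10%), beside 8.83% and 10.2% of all genes. Among 13 other isoprenoid genes, 1 was called higher with TCM, Coq2 of ubiquinone synthesis (log2 FC 0.45 ± 0.13, edgeR adjusted P = 0.0326), and among 14 other sterol sensing genes 1 was called lower, Lbr, which like Tm7sf2 is a sterol reductase (log2 FC −0.39 ± 0.10, edgeR adjusted P = 0.0162). Of 23 other genes of sterol transport and storage, 3 were called higher with TCM and 2 lower. Nceh1, which hydrolyzes cholesteryl esters (log2 FC 0.71 ± 0.17, edgeR adjusted P = 0.0140), Osbpl5 (log2 FC 0.49 ± 0.11, edgeR adjusted P = 0.0104) and the lipoprotein receptor Scarb1 (log2 FC 0.45 ± 0.11, edgeR adjusted P = 0.0144) were the higher ones. Gramd1a (log2 FC −0.45 ± 0.14, edgeR adjusted P = 0.0386) and Gramd1b (log2 FC −0.89 ± 0.16, edgeR adjusted P = 0.00261), carriers of cholesterol from the plasma membrane, were the lower ones. All of these are relative to CCM. Nceh1 was at 8.60 and 9.56 CPM with CCM, 15.1 and 16.9 CPM with vehicle and 13.3 and 16.4 CPM with TCM, so that TCM overlapped vehicle. Gramd1a was at 61.7 and 49.2 CPM with CCM, 41.1 and 40.4 CPM with vehicle and 40.8 and 40.8 CPM with TCM, which again overlapped vehicle. Against vehicle, TCM was called for Coq2, Scarb1 and Gramd1b of these genes and not for Lbr, Nceh1, Osbpl5 or Gramd1a.

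Of 9 other oxysterol and LXR genes tested, Arl4c fell with TCM and Pltp rose, both of them known LXR targets. Arl4c, a small GTPase, was at 35.4 and 32.7 CPM with vehicle, 27.7 and 31.6 CPM with CCM, 29.9 and 27.7 CPM with LA and 12.2 and 11.6 CPM with TCM. Its TCM libraries lay below the other 6 (log2 FC −1.31 ± 0.13, edgeR adjusted P = 6.63e-05). Pltp, the phospholipid transfer protein, was at 179 and 187 CPM with vehicle, 168 and 164 CPM with CCM, 169 and 161 CPM with LA and 248 and 228 CPM with TCM, and TCM exceeded CCM (log2 FC 0.52 ± 0.090, edgeR adjusted P = 0.00201). Thus the LXR targets in these lists did not all move one way. Of 23 other fatty acid and glycerolipid genes tested, 3 were called higher with TCM: the citrate carrier Slc25a1 (log2 FC 0.74 ± 0.10, edgeR adjusted P = 0.000513), Hacd4 (log2 FC 0.68 ± 0.11, edgeR adjusted P = 0.00173) and Lpin1 (log2 FC 0.61 ± 0.17, edgeR adjusted P = 0.0244). The elongase Elovl4 was called lower (log2 FC −1.46 ± 0.36, edgeR adjusted P = 0.0144). Against vehicle, TCM was called for Arl4c, Slc25a1, Hacd4 and Elovl4 and not for Pltp or Lpin1. With LA, 1 gene of all these lists was called, Gramd1b, which was lower (log2 FC −0.70 ± 0.15, edgeR adjusted P = 0.0378). That is 1.22% of the 82 genes called lower and 0 higher, beside 1.24% and 1.31% of all genes.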

How the data were processed

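The authors prepared directional poly(A) libraries from FRC and, per the labels, aligned reads with STAR 2.7.0a to GRCm38 and counted them per gene with featureCounts from Subread 2.0.1; the deposited values are unnormalized counts in whole numbers. The strand setting is not given in the sources used here. A second deposited table held 12137 genes, with 100% of its values equal to the raw counts, and 0 columns of per-sample values were left unused. The authors tested with DESeq2 1.32.0.

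Here, a gene needed 10 or more counts in 3 or more libraries to be fitted with edgeR 4.0.16 (quasi-likelihood test, robust, TMM factors) in R 4.3.3, with all 8 libraries and a mean for each condition. P values were adjusted by Benjamini-Hochberg over 12137 genes, the fold threshold of 0.39 (log2) came from the study's methods, and tests were 2-sided. The difference between the effects was a contrast in the same fit. The standard error was the size of the log2 FC divided by the square root of F. The fit was tested on simulated data. Total counts of 8232889 to 14107964 put 3 counts, the floor, at 0.212 to 0.355 CPM, which covers counting error only, since no molecular identifiers were used.

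The genes and lists were chosen with earlier results of these data known. Library values were given for every gene called in at least 1 of the 5 comparisons and for the regulators and receptors, and other genes by range or count; called genes of the other lists were named for TCM against CCM and LA against vehicle. A value in every library is also given for Hmgcs1, Arl4c and Pltp, and in 6 for Nceh1 and Gramd1a, chosen after their values were seen. Alternatives were DESeq2 1.42.0 and its size factors, no TMM factors, other filters and fold thresholds, only the libraries compared, the replicate number as a block and leaving out each library.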

Additional observations from a re-analysis of the deposited data

How the results depend on the processing

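No direction of a called gene reversed under any alternative run. With a fold threshold of 0.68, the calls among the 38 genes numbered 3 for TCM against CCM, 2 for LA, 4 for the difference between the effects and 3 for TCM against vehicle, and with 1 they numbered 1, 0, 1 and 1. Over all genes, 2314 were called for TCM against CCM, 310 for LA, 1268 for the difference, 158 for CCM and 2121 for TCM against vehicle, and 0.68 left 1331, 176, 1002, 84 and 1199 and a threshold of 1 left 760, 86, 634, 19 and 668. Without a filter on low counts 11 of the 38 genes were called for LA and 3 for CCM, with 656 and 584 of all genes. With only the libraries compared, 10 were called for LA, 3 for CCM and 6 for TCM against vehicle, with 679 of all genes for CCM. Leaving out each library in turn gave 8 to 15 calls among the 38 for TCM against CCM, 0 to 11 for LA, 2 to 12 for the difference, 0 to 2 for CCM and 3 to 11 for TCM against vehicle, and over all genes 1195 to 2864, 57 to 617, 629 to 2540, 0 to 497 and 1128 to 2904. Without TMM factors, 24.2% of all calls for TCM against CCM were higher. Replicate numbers were not taken to pair the libraries: deviations of same-numbered libraries correlated at 0.353 (vehicle and LA), 0.112 (vehicle and TCM) and 0.106 (LA and TCM), but at −0.242, −0.0813 and −0.0406 between CCM and TCM, LA and vehicle. With the replicate block the calls among the 38 genes were 12, 6, 9, 0 and 11 in the order above, the numbers of the fit without it, and 2367, 356, 1316, 193 and 2206 over all genes. When the CCM numbers were swapped, an alternative chosen after seeing the data, the replicate block gave 11 of the 38 genes for LA and 2 for CCM, and 596 of all genes for LA, 1938 for the difference and 457 for CCM. Causes of these shifts were not tested, except that stricter thresholds leave fewer genes by construction. With 2 libraries per group, single calls near a threshold are the least certain.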
